A study of Mus musculus with 4 samples.

Results

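The genes described here encode the clotting and fibrinolytic proteins, the complement proteins and the serpins, a family of serine protease inhibitors. They were chosen by gene symbol, with earlier results of these data known. On the array, 51 of the 8251 genes with a probe set of their own carried such a symbol, read by 64 of 10833 such probe sets, and they comprised 23 serpins and 28 other genes. Several clotting and complement genes, among them F11, C3, C6, C8a, C8b, Cfd and C4b, were not analysed here. A further 6 probe sets annotated to several such genes, among them C4a with C4b and mixtures of the Serpina1 genes, were also not used.

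Liver RNA of female mice aged 8 months was compared between wild-type mice and HSL-null mice, which carry a general knockout of the gene Lipe for hormone-sensitive lipase. For 6 months the mice had eaten a normal diet (ND), where fat supplied 11% of the energy, or a high-fat diet (FD), where it supplied 58%. Each genotype was studied on each diet as 1 pool, made of 6 livers except for the 4 livers of the HSL-null FD pool. Each pool was measured on 1 array, so there were no replicates, no test was possible and the words higher and lower describe these pools. The study asked how loss of the lipase affects liver metabolism.

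Most of these proteins are made by hepatocytes and secreted into blood. Clotting is a cascade of proteases that ends when thrombin cuts fibrinogen to fibrin, and plasmin later dissolves the fibrin. Complement is started by C1q on antibodies, by mannose-binding lectins on microbial sugars or by the alternative pathway, and ends in the membrane attack complex. Serpins trap proteases of both cascades, and several members of the group are acute phase proteins whose synthesis is driven by interleukin-6 and interleukin-1.

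Signals below are deposited array intensities on a linear scale, and each gene is read by its brightest probe set. Values listed for 4 pools stand in a fixed order, first wild type (ND, then FD), then HSL-null (ND, then FD). Genes were kept where the mean signal was at least 26.9, which left 42 of the 51 members and 4829 genes in all. Of the 9 members under that limit, 6 were among the 8 intracellular serpins of clade B, and the others were Serpina5, Serpini1 and Cfb. Cfb, the factor B of the alternative pathway, had signals of only 10.5, 17.4, 19.7 and 10.3 on 1 probe set and of 4.3, 17.3, 22.4 and 19.1 on the other. The other 8 genes under the limit had signals from 0.4 to 13.8.

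The 3 fibrinogen genes and the mannose-binding lectin genes were opposite in the wild-type diet comparison, so the promoters of both sets are shown first. They were read from RefSeq windows of the build GRCm38.p6 that run from 250 bases before to 50 after the start of the gene, 5′ to 3′ on the strand of the gene. Capitals mark matches on either strand to the C/EBP motif TTGCNNAA, the STAT motif TTCNNNGAA and the HNF1 motif GTTAAT, which do not overlap each other here.
Fga (chr3:83025903-83026202, + strand): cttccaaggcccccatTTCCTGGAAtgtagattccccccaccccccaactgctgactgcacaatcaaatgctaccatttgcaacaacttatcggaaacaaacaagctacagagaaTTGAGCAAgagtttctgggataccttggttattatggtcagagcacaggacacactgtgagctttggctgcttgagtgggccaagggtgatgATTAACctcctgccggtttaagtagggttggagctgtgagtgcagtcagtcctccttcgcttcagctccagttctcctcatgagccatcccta
Fgb (chr3:83049814-83050113, - strand): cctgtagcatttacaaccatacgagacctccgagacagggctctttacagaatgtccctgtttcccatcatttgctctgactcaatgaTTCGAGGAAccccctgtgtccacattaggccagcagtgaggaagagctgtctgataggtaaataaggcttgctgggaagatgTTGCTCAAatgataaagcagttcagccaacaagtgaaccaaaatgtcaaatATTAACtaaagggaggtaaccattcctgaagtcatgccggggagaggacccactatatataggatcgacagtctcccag
Fgg (chr3:83007474-83007773, + strand): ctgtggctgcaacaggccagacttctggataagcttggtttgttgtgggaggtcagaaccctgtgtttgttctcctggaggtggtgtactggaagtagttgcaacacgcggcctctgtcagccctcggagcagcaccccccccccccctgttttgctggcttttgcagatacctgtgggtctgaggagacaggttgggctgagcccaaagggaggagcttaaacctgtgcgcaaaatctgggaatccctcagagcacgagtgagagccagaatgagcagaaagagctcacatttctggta
Mbl1 (chr14:41151206-41151505, + strand): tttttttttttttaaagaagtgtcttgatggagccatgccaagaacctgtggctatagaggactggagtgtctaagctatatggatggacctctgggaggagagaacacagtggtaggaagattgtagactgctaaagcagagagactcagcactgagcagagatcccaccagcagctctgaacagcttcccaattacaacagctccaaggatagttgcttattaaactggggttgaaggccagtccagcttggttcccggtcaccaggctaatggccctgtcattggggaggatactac
Mbl2 (chr19:30232678-30232977, + strand): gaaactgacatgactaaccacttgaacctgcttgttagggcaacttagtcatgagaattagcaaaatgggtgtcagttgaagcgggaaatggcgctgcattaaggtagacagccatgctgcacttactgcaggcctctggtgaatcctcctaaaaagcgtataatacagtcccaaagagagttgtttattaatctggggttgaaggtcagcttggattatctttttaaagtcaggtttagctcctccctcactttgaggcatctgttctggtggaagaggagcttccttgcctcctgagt
The Fga window held a STAT match at -234, a C/EBP match at -135 and an HNF1 match at -43 from the start of the gene. In the Fgb window the same 3 motifs lay at -162, -80 and -29. The windows of Fgg, Mbl1 and Mbl2 held none of these letters, which says nothing on the factors themselves.

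Promoter windows were given for 32 of the 42 kept members. A member gene was counted if any of its windows held the letters, while the background is a share of single windows. The 39 members with a window, kept or not, had 42 windows. The C/EBP letters occurred in 8 of the 32 genes, or 25%, against 10.8% of all 32851 windows. STAT letters occurred in 6 genes, or 18.8%, against 8.30% of windows, and the HNF1 motif in 8 genes, or 25%, against 7.10%. Fga and Fgb were the 2 members whose window held these 3 motifs together, which 33 windows in all, or 0.1%, did. The HNF4 motif CAAAGTCCA was in 0 of the 32, against 0.475% of windows. These matches describe letters in a window and are not binding sites.

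None of the 42 kept members differed 2-fold in any of the 4 comparisons. Over all kept genes, 1.57% differed 2-fold between HSL-null and wild type on ND, 2.82% between genotypes on FD, 3.15% between diets in wild type and 1.45% between diets in HSL-null liver. With shares this low, 0 of 42 is close to the background. At 1.5-fold, 6 of the 42 members differed in at least 1 comparison, or 14.3%, against 25.4% of all kept genes. They were C1qb, F7, Hc, Serpina12, Serpina3n and Serpinh1. For scale, the disagreement between the 2 brightest probe sets of a gene gave a log2 ratio an SD of 0.298 over 687 genes, and of 0.212 over the 229 genes whose second probe set had a mean signal of at least 100. Error shared by all probe sets of an array is not in these SDs.

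**Figure D1:**
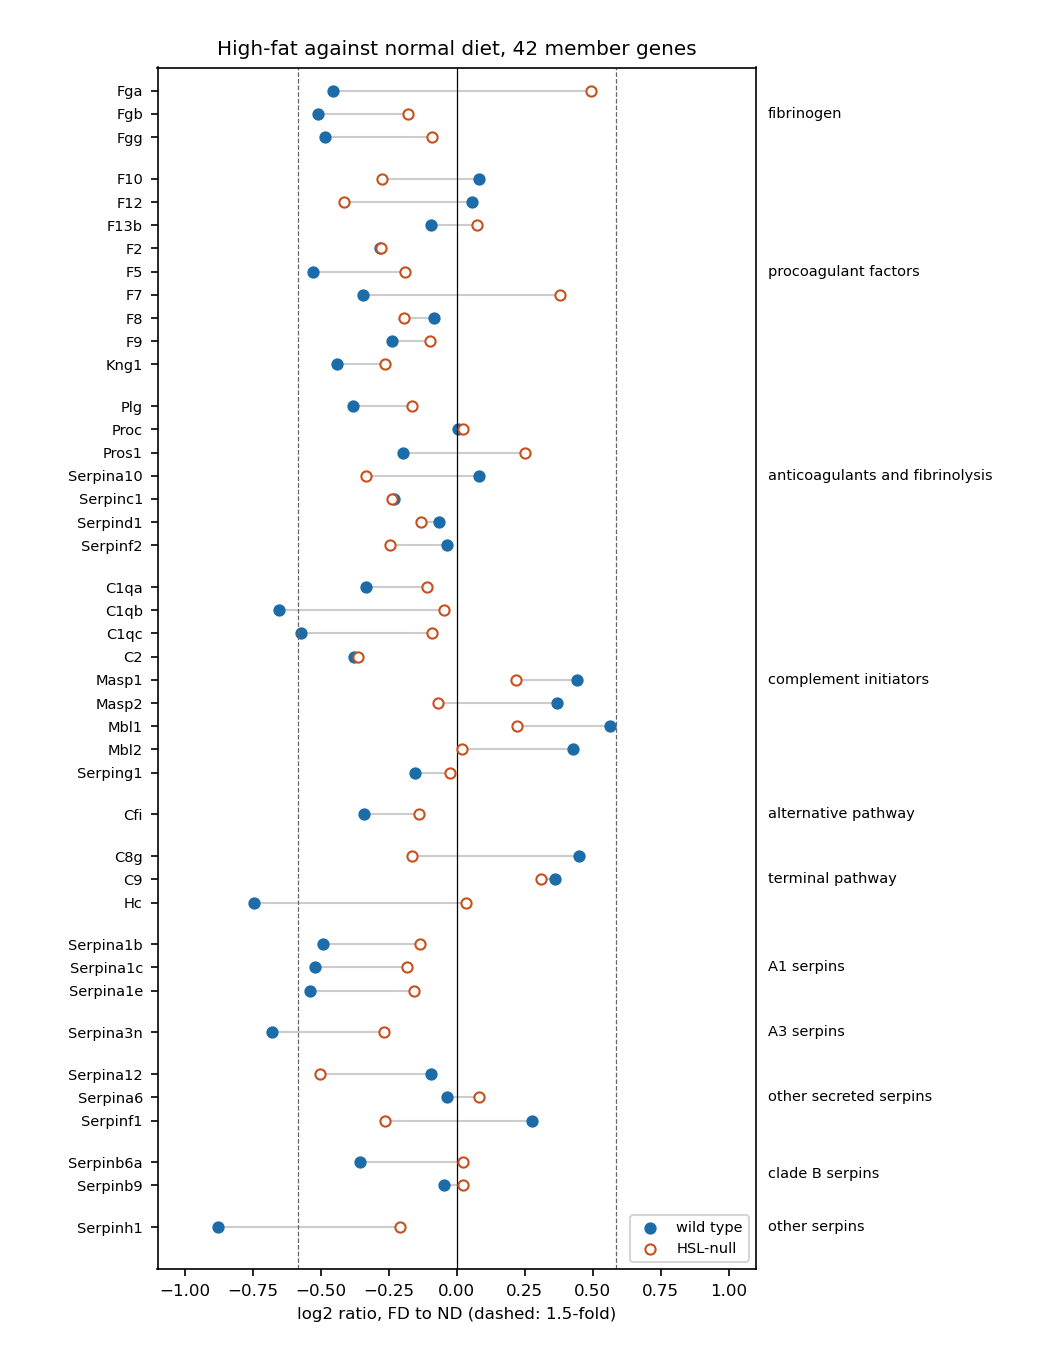
Log2 ratio of FD to ND for each of the 42 kept members, grouped by role, with 1 filled point for wild type and 1 open point for HSL-null liver and no error bars, as there was 1 array per pool. In wild type the fibrinogen, C1q and A1 serpin genes sit between -0.66 and -0.33 and the 4 lectin pathway genes between 0.37 and 0.56, while every open point lies inside the dashed 1.5-fold lines.

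The members' ratios leaned to lower signals on FD. In wild type, 31 of 42 members had a lower signal on FD than on ND, or 73.8%, against 55.7% of all kept genes, and the median log2 ratio was -0.23 against -0.047. In HSL-null liver 29 of 42 were lower on FD, or 69.0%, against 42.8% of all kept genes, with medians of -0.13 and 0.041. There were 23 members lower on FD in both genotypes, or 54.8% against 22.4% of all genes, and 5 higher in both (11.9% against 23.6%), namely C9, Masp1, Mbl1, Mbl2 and Proc. The member medians in wild type and HSL-null liver came to only -0.047 and -0.032 under quantile normalization, which forces the arrays to 1 distribution. They were -0.21 and -0.037 under cyclic loess. With either method fewer than 23 members were lower on FD in both genotypes. Fgg, Plg, Serping1 and Serpina1b turned above 0 in HSL-null liver under both methods, and Serpina1e (0.021) under cyclic loess. Under quantile normalization F8 (0.0105), Serpinc1 (0.0295), Serpind1 (0.0079) and Serpinf2 (0.024) also turned above 0 in wild type. Serpinb6a went the other way and became lower in both genotypes under both methods. Upper signals were lower on FD on the arrays as a whole, as the 99th percentile was 2446 against 2282 in wild type and stood at 2367 against 2188 for HSL-null. The part of that difference in the member medians was not tested.

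Past 1.5-fold, wild type had 4 of 42 members lower on FD, or 9.52%, against 9.48% of all kept genes lower and 14.0% different either way. These were Serpinh1, Hc, Serpina3n and C1qb, and 0 of 42 were 1.5-fold higher on FD, against 4.56%. Under median scaling 3 members were 1.5-fold higher, C8g (log2 ratio 0.59), Masp1 (0.59) and Mbl1 (0.71), and 2 were lower, Hc and Serpinh1. HSL-null liver had 0 of 42, against 6.44% of all kept genes. Hepatocyte markers moved alongside, with 6 of 6 lower on FD in wild type (median log2 ratio -0.36) and 5 of 6 lower in the HSL-null pools (-0.19). Over all kept genes the shares were 55.7% and 42.8%. The part of the hepatocyte markers in the members' ratios was not tested.

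The fibrinogen genes are direct neighbours on the chromosome and encode the 3 chains of 1 protein. Fga, the alpha chain, had signals of 1383, 1009, 1005 and 1415. The beta chain gene Fgb had 2150, 1510, 2280 and 2011. For the gamma chain gene Fgg they were 3010, 2152, 3008 and 2823. In wild type all chains were lower on FD, with log2 ratios of -0.45 for Fga, -0.51 for Fgb and -0.48 for Fgg, and they stayed between -0.51 and -0.31 under every alternative processing. On FD the HSL-null pool was higher than wild type in all chains, with log2 ratios of 0.49, 0.41 and 0.39, a comparison that uses the same wild-type FD array. Fgb and Fgg thus had their lowest signal in wild type on FD, with the other pools close together.

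Fga departed from its partner chains in the HSL-null ND pool. There it was lower than in wild type by a log2 ratio of -0.46, where Fgb had 0.085 and Fgg -0.0010. In HSL-null liver Fga was accordingly higher on FD than on ND (0.49), while Fgb (-0.18) and Fgg (-0.091) were slightly lower, although Fgg came to 0.026 under quantile normalization and 0.047 under cyclic loess. Each chain was read by 1 probe set, so no second reading of Fga exists here.

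**Figure D2:**
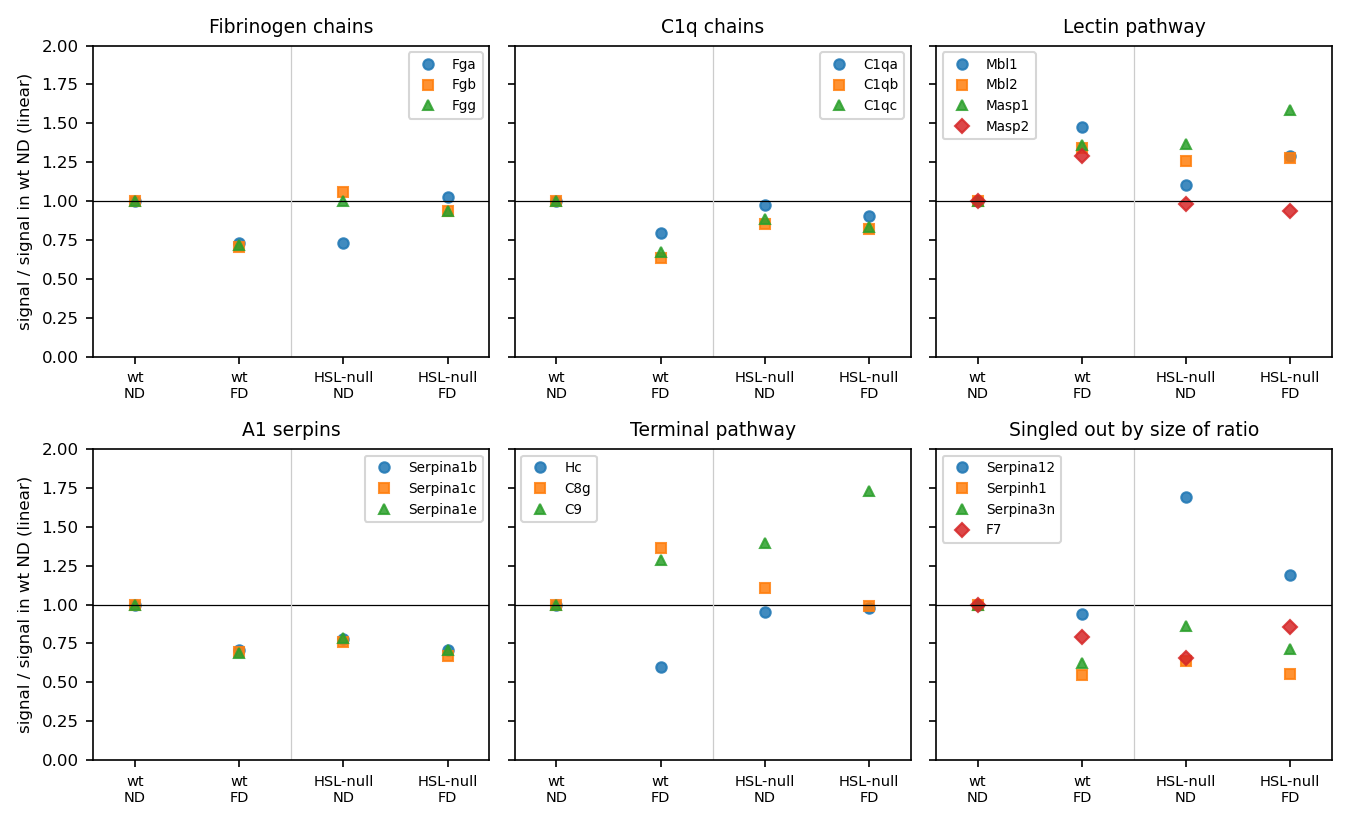
Signal in each pool divided by the signal of the same probe set in wild type on ND, on a linear axis from 0, for 6 sets of member genes. Each point is 1 array without error, and the wild-type FD points of the fibrinogen and C1q genes lie below those of the other pools, except that Fga was as low in HSL-null liver on ND (1009 and 1005).

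Of the 9 kept procoagulant factors, 7 were lower on FD in wild type and 7 in HSL-null liver. Over all kept genes the shares were 55.7% and 42.8%. The factors had median log2 ratios of -0.24 and -0.19, against -0.047 and 0.041 over all kept genes. F2, the gene of prothrombin, had signals of 2544, 2091, 2596 and 2139, so both FD pools were lower by the same log2 ratio of -0.28 and the genotype ratio was 0.029 on ND and 0.033 on FD. F5, a cofactor of the enzyme that makes thrombin, had 864, 599, 829 and 727, and its log2 ratio of FD to ND was -0.53 in wild type and -0.19 in HSL-null liver. Kng1, which encodes the kininogen of the contact system, had 4686, 3456, 4038 and 3366 and ratios of -0.44 and -0.26. Under quantile normalization the wild-type ratio of Kng1 shrank to -0.065, against -0.30 under median scaling and -0.39 under cyclic loess.

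F7, the protease that starts clotting together with tissue factor, was read in conflicting ways by its probe sets. The brighter one had signals of 666, 524, 438 and 569 and a genotype log2 ratio of -0.61 on ND. The other had 561, 509, 577 and 460, with a genotype ratio of 0.042. Their diet ratios in HSL-null liver were 0.38 and -0.33, so the lower F7 of the HSL-null ND pool rests on 1 probe set, and its ratio was -0.48, under 1.5-fold, with median scaling. F10, the neighbour of F7, also had discordant readings of diet in wild type, 0.081 and -0.43, and of genotype on FD, -0.26 and 0.40. Among F8, F9, F12 and F13b no ratio in any comparison was larger in size than the -0.41 of F12 for diet in HSL-null liver. F12 starts the contact pathway and had signals of 979, 1018, 1064 and 798. F8, a cofactor made by endothelium and not by hepatocytes, had 71.3, 67.3, 76.0 and 66.4, a narrow range in which no pool stood apart.

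Anticoagulant and fibrinolytic genes varied within narrow bounds. Plg, which encodes plasminogen, the precursor of plasmin, had signals of 6315, 4854, 5409 and 4831. Its log2 ratio of FD to ND was -0.38 in wild type and -0.16 in HSL-null liver, and -0.45 and -0.20 at its other probe set. The direction turned under quantile normalization, to 0.088 in wild type and 0.019 in HSL-null liver. Plg lies among the brightest probe sets, and that method sets such top ranks to nearly the same values on every array. Cyclic loess gave -0.32 and 0.016, and median scaling -0.24 and -0.32. Serpinc1, the gene of antithrombin, which blocks thrombin, had 3616, 3080, 3340 and 2835, with both FD pools lower by about the same log2 ratio (-0.23 and -0.24), of which the wild-type value turned to 0.029 under quantile normalization.

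Proc, the gene of the anticoagulant protein C, was the flattest of this set, with 1777, 1784, 1645 and 1672. Pros1, which encodes the protein C cofactor protein S, had 141, 123, 121 and 144, so the pools paired across diet and genotype. Serpina10, an inhibitor of factor X that acts with protein Z, had 760, 805, 824 and 653, lowest in HSL-null liver on FD (log2 ratio to ND -0.33). For Serpind1, heparin cofactor II, the genotype ratio was 0.062 on ND and -0.0035 on FD, and for Serpinf2, the plasmin inhibitor, 0.15 and -0.064. In none of these 7 genes did a ratio of the brightest probe set pass 0.38 in size.

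The C1q genes, 3 neighbours that encode the chains of the antibody-binding starter of the classical pathway, were lower on FD. C1qa had signals of 567, 450, 553 and 512. C1qb had 582, 370, 495 and 479, and C1qc 740, 498, 656 and 616. For each chain the wild-type FD pool was lowest and the wild-type ND pool highest, and the log2 ratios of FD to ND were -0.33, -0.66 and -0.57 for wild type against -0.11, -0.048 and -0.092 for HSL-null. The second probe set of C1qb, with signals of only 39.2, 56.4, 41.8 and 48.6, went the other way at 0.52.

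C1q is made by macrophages rather than hepatocytes. The Kupffer cell and macrophage markers, of which 8 of 8 were on the array and none at the floor of 6.1 on every array, had summed signals of 2004, 1452, 1981 and 1831. In wild type 7 of the 7 kept markers were lower on FD (median log2 ratio -0.42), and in HSL-null liver 5 of 7 (-0.14). Over all kept genes the shares were 55.7% and 42.8%. By diet, and by genotype on FD, the C1q signals moved with these markers. By genotype on ND all 3 C1q chains were below 0, where 4 of the 7 kept markers were below 0 and 3 above. The part of the markers in the C1q ratios was not tested, and in pooled tissue fewer cells and less RNA per cell cannot be told apart.

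The lectin pathway genes were higher on FD in wild type. Mbl1, a mannose-binding lectin, had signals of 238, 352, 263 and 307. Mbl2, its paralog, had 919, 1235, 1157 and 1172. Masp1, a protease bound to these lectins, had 170, 231, 232 and 270. In wild type the log2 ratios of FD to ND were 0.56 for Mbl1, 0.43 for Mbl2 and 0.44 for Masp1, and for each of these genes wild type on ND was the lowest pool.

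Masp2, the protease that cleaves C4 and C2, had signals of 226, 292, 222 and 212, so the wild-type FD pool alone was high, with a log2 ratio of 0.37. Over the 4 lectin genes, the wild-type ratio stayed between 0.35 and 0.71 under every alternative processing. In HSL-null liver the ratios were smaller, at 0.22 for Mbl1, 0.018 for Mbl2, 0.22 for Masp1 and -0.068 for Masp2. The median of these 4 genes was 0.44 in wild type and 0.12 in HSL-null liver, but -0.038 in HSL-null liver under median scaling. This set of 4 was put together after its values were seen.

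C2, a protease precursor cleaved in both the classical and the lectin pathway, was lower on FD in both genotypes to a like degree, with signals of 249, 191, 263 and 205 and log2 ratios of -0.38 and -0.36. Serping1, the C1 inhibitor, which restrains both starting complexes, stayed flat at 2405, 2161, 2460 and 2420. Cfi, the protease that inactivates C3b and C4b, had 2863, 2262, 2944 and 2672, lower on FD by -0.34 in wild type and -0.14 in HSL-null liver.

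Each gene of the terminal pathway had a course of its own. Hc, the gene of complement C5, had signals of 1336, 797, 1275 and 1307. Wild type on FD was the low pool, 1.68-fold below wild type on ND (log2 ratio -0.74) and 1.64-fold below HSL-null on FD (0.71 for HSL-null to wild type), and the remaining pools lay close together. C8g, a chain of C8, went the other way, with 1972, 2693, 2183 and 1950, highest in wild type on FD (0.45). C9, whose product forms the pore, had 591, 760, 824 and 1022. Both FD pools exceeded the ND pool of their genotype (0.36 and 0.31), and both HSL-null pools exceeded the wild-type pool of their diet (0.48 on ND and 0.43 on FD). These signs of C9 held under every alternative processing, although no ratio reached 1.5-fold except 0.61 for genotype on ND under median scaling.

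The A1 serpins encode alpha-1-antitrypsin, the main inhibitor of neutrophil elastase, and mice carry several near-identical copies. The probe sets of Serpina1b, Serpina1c and Serpina1e have a suffix for probes shared within a family, so their values cannot be assigned to single copies. Serpina1b had signals of 6506, 4623, 5067 and 4613. Serpina1c had 6903, 4810, 5222 and 4603, and Serpina1e 6531, 4491, 5138 and 4610. Wild type on ND was the high pool in all, with log2 ratios of FD to ND from -0.54 to -0.49 in wild type. Under quantile normalization these became 0, -0.010 and -0.079. That method gives the top ranks of every array nearly the same values. These probe sets lie near the array maxima (6913, 4976, 5422 and 4831), so little difference could appear under that method. The maxima were themselves lower on FD in both genotypes. The part of this lower top of the arrays in the A1 serpin ratios was not tested. The ratios were -0.35, -0.38 and -0.40 under median scaling and -0.43, -0.46 and -0.48 under cyclic loess. The probe set of Serpina1c without a suffix had 5043, 3976, 4527 and 4214 and a ratio of -0.34.

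**Figure D3:**
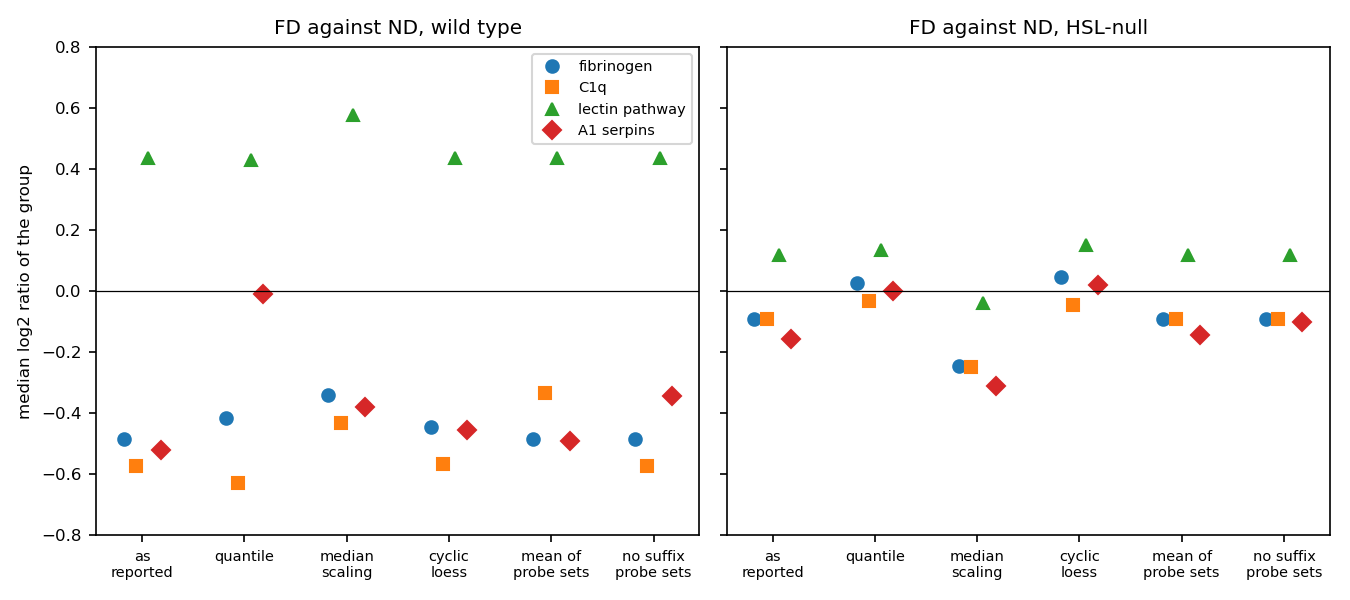
Median log2 ratio of FD to ND for the fibrinogen, C1q, lectin pathway and A1 serpin genes under the reported processing and 5 alternatives, 1 point per group and setting. In wild type the lectin median stayed at 0.43 or above and the fibrinogen median at -0.34 or below, while the A1 serpin median was -0.010 under quantile normalization. That method evens out the top ranks, where the A1 serpins lie. Their median was -0.38 under median scaling and -0.46 under cyclic loess.

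Serpina3n, an acute phase inhibitor of cathepsin G and related proteases, was the A3 serpin measured. Its signals were 1878, 1172, 1615 and 1340, so FD was lower in both genotypes, by 1.60-fold in wild type (log2 ratio -0.68) and by -0.27 on the log2 scale in HSL-null liver. Serpina12, known as vaspin, an adipokine tied to insulin sensitivity, had 152, 143, 258 and 182. HSL-null on ND was the high pool, 1.69-fold above wild type (0.76), and HSL-null on FD was nearer to wild type (0.35). Of the adipocyte markers, 5 of 6 were on the array, Retn and Cidec were at the floor in all pools, and the summed signal of 135, 142, 135 and 157 came mostly from Lep (99.2, 109, 112 and 125), the 1 kept. Adipoq, under the limit for kept genes, had 18.1, 9.2, 4.8 and 4.9. The part of adipocyte RNA in the Serpina12 ratio was not tested.

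Serpina6, the carrier of corticosteroids in plasma, had 2737, 2673, 2288 and 2419, with genotype ratios of -0.26 on ND and -0.14 on FD. Serpinf1, an inhibitor of blood vessel growth, had 1759, 2129, 2078 and 1733, so its diet ratio was 0.28 in wild type and -0.26 in HSL-null liver. Of the intracellular clade B serpins, Serpinb6a had 105, 82.3, 104 and 105 and was low in wild type on FD alone. Serpinb9, the granzyme B inhibitor, had 59.7, 57.8, 58.6 and 59.6, with no pool apart.

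Serpinh1, a collagen chaperone of the endoplasmic reticulum, had the largest diet ratio among the 42 kept members. Its signals were 68.0, 37.0, 43.5 and 37.6, so the wild-type ND pool alone was high, 1.84-fold above wild type on FD (log2 ratio -0.88) and 1.56-fold above HSL-null on ND (-0.64). That genotype ratio was under 1.5-fold with quantile normalization (-0.57), median scaling (-0.51), cyclic loess (-0.56) and the pseudocount (-0.50). The exocrine pancreas markers were high in the same pool, with 5 of 8 on the array, none at the floor on every array and summed signals of 739, 214, 187 and 180. Stellate cell and fibroblast markers, with 5 of 6 on the array and none at the floor on every array, summed to 1507, 1237, 1564 and 1553, mostly from Dcn (1361, 1112, 1444 and 1370). Of the 4 kept, 4 were lower on FD in wild type, against 55.7% of all kept genes. On ND 3 of them had a genotype ratio below 0, against 52.6%, and Serpinh1 had the same directions. In the remaining comparisons Serpinh1 did not follow these markers. The marker median was 0.61 for genotype on FD and 0.53 for diet in HSL-null liver, where Serpinh1 had 0.023 and -0.21. The part of either in the Serpinh1 ratio was not tested.

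**Figure D4:**
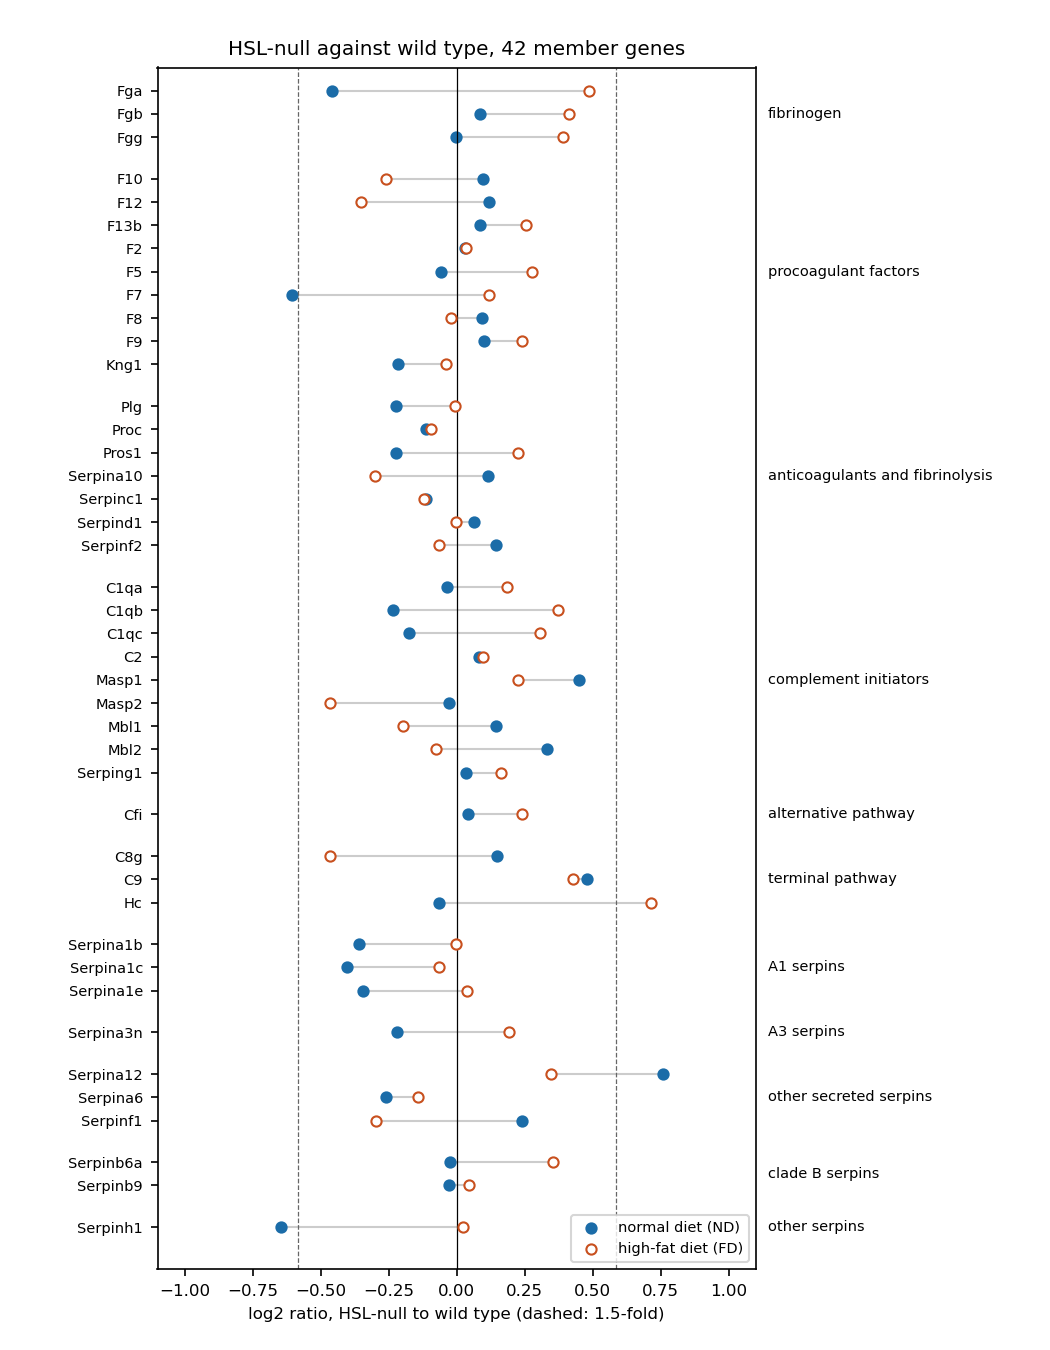
Genotype log2 ratio (HSL-null over wild type) for each of the 42 kept members, filled for ND and open for FD, 1 array per pool and no error bars. Past the dashed 1.5-fold lines lie Serpina12 (0.76), F7 (-0.61) and Serpinh1 (-0.64) on ND and Hc (0.71) on FD.

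Between genotypes the median of the members was near that of all kept genes. On ND 20 of 42 members were higher in HSL-null liver and 22 lower, with 52.4% below 0 against 52.6% of all kept genes and a median of -0.013 against -0.018. Past 1.5-fold lay 3 of 42, or 7.14%, against 6.73% of all kept genes. On FD 24 were higher and 18 lower, with 42.9% below 0 against 41.5% of all kept genes and a median of 0.041 against 0.067. The member median on FD was 0.12 against 0.0040 under cyclic loess and -0.13 against -0.10 under median scaling, which gave 0.12 against 0.11 on ND. Past 1.5-fold lay 1 of 42, or 2.38%, against 12.9%, and this gene, Hc, was at 0.55, under 1.5-fold, with median scaling. The shares on ND were near those of all kept genes, and on FD the members' ratios had an SD of 0.26 where those of all kept genes had 0.45. These backgrounds were not matched for signal. The kept members had a median signal from 1014 to 1114 by pool, while all kept genes reached down to the limit of 26.9. The part of signal in the shares and SDs was not tested, so the smaller SD cannot be ascribed to the members' roles. The same limit applies to the other shares of all kept genes given here.

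The same direction on both diets was seen in 18 members. HSL-null liver was higher on both in 10 members, or 23.8% against 26.0% of all genes, and lower on both in 8 (19.0% against 20.3%). Of the 10 higher members, C9 had the largest smaller ratio, at 0.43, ahead of Serpina12 (0.35) and Masp1 (0.22). The genotype ratios differed between diets by 1 or more on the log2 scale in 0 of 42 members, against 6.32% of all genes. They differed by 1.5-fold or more in 6, or 14.3% against 22.6%, which were C1qb, C8g, F7, Fga, Hc and Serpinh1. Opposite genotype ratios, each larger than the probe-set SD of 0.298, were seen in Fga alone, or 2.38% of members against 7.58% of all genes. Opposite diet ratios of that size were seen in F7 and Fga, or 4.76% against 6.77%.

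By pool, 19 of the 42 members had their lowest signal in wild type on FD, or 45.2% against 36.1% of all genes, and 14 in HSL-null on FD (33.3% against 19.9%). The highest signal was in wild type on ND for 18, or 42.9% against 29.9%, and in HSL-null on ND for 13 (31.0% against 15.7%). Wild type on ND was the lowest pool for 4 members, C9, Masp1, Mbl1 and Mbl2, or 9.52% against 24.6%.

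Other genes of these pathways were taken from a list. Of 10 kept clotting and fibrinolysis genes, 6 were lower on FD in wild type, near the 55.7% of all kept genes, with a median of -0.23 against -0.047, and 0 were 2-fold different in any comparison. Vwf, an endothelial gene whose product carries factor VIII, had signals of 40.2, 22.0, 30.0 and 29.1 and was lower on FD in wild type by -0.87. F2r, a thrombin receptor, had 173, 122, 186 and 201 and a genotype ratio of 0.72 on FD. Ggcx and Vkorc1, which carry out and sustain the vitamin K-dependent modification of clotting factors, had no ratio above 0.42 in size.

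Of 10 kept complement genes outside the members, 7 were lower on FD in wild type, against 55.7% of all kept genes, with a median of -0.13 against -0.047. C1ra, a protease bound to C1q, had a ratio of 0.045. Cd55, which protects host cells from complement, had 32.2, 16.7, 26.7 and 35.1, low in wild type on FD, and a genotype ratio of 1.07 on FD, the 1 complement gene of this list past 2-fold. Fcna, a lectin of macrophages that also binds Masp proteins, had 126, 78.3, 142 and 116. Unlike Mbl1 and Mbl2 it was lower on FD in wild type (-0.69), as the macrophage markers were.

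Regulators of acute phase and hepatic transcription were lower on FD in wild type in 11 of 11 kept genes, against 55.7% of all kept genes. Their median was -0.33 against -0.047 for all genes. In HSL-null liver 5 of 11 were lower, near the 42.8% of all kept genes, with a median of 0.055 against 0.041. Stat3, which carries the interleukin-6 signal, had signals of 175, 106, 158 and 184. Il1b, the interleukin-1 beta gene, had 53.2, 20.0, 26.1 and 55.3. Cebpb, a C/EBP factor of the acute phase, had 404, 321, 431 and 488, and Hnf4a, a hepatocyte regulator that is also among the hepatocyte markers, 338, 279, 247 and 257. Stat3, like Hc, Fgb and Fgg, was lowest in wild type on FD, as were 45.2% of the members and 36.1% of all kept genes. Fga was instead lowest in HSL-null liver on ND. No link between these genes and the members was tested.

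**Figure D5:**
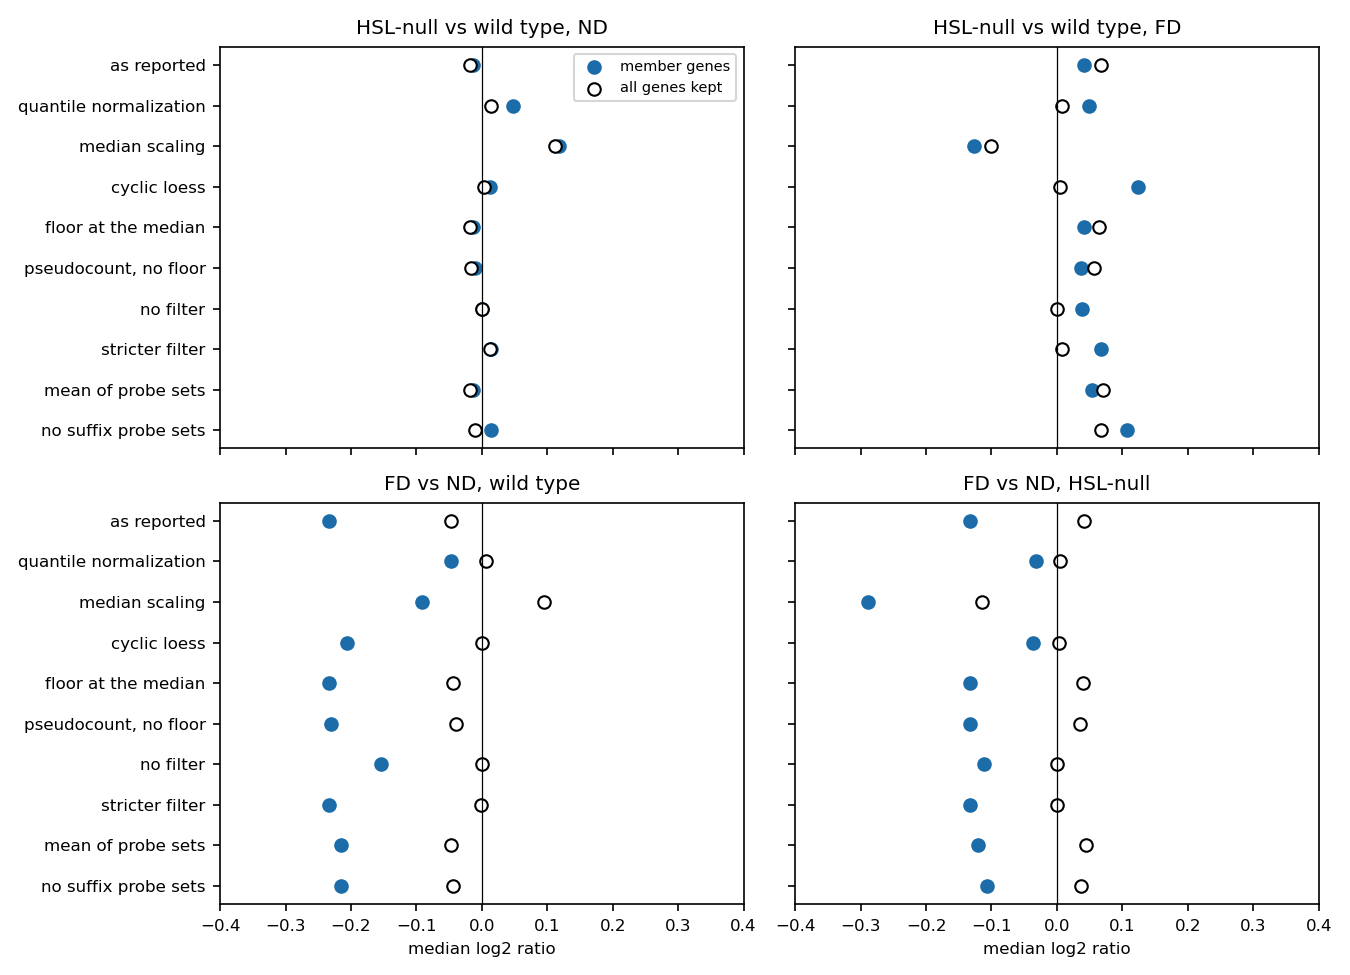
Median log2 ratio of the member genes (filled) and of all kept genes (open) in the 4 comparisons under the reported processing and 9 alternatives. The diet medians of the members lie left of those of all genes in each row, from -0.23 against -0.047 in wild type as reported to -0.032 against 0.0049 in HSL-null liver under quantile normalization.

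As checks of the pools, Lipe had signals of 28.0, 34.0, 11.9 and 15.9, lower in both HSL-null pools, at a mean below the limit for kept genes. The hepatocyte markers were on the array in 6 of 6 cases, all kept, with summed signals from 16512 to 22221. Endothelial markers summed to 275, 192, 234 and 223, T and B cell markers to 129, 60.6, 85.2 and 125, neutrophil markers to 70.7, 46.4, 47.3 and 118, and platelet markers to 21.3, 16.4, 14.9 and 13. The run settings named 2 solution lots, 1 for each genotype, and the lot and the genotype therefore cannot be told apart.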

How the data were processed

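Biotin-labelled liver RNA was hybridised to Affymetrix MG_U74Av2 arrays, 1 per pool. The values deposited by the authors are intensities on a linear scale, 1 per probe set, and the submitters' processing notes name MAS5 without a version. After trimming 2% from each end, the mean was 100.085 to 100.094 on every array, so arrays had been scaled to a common mean. The other deposited files hold run settings, some of them numbers of no expression unit.

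Signals of the 12422 non-control probe sets were raised to a floor of 6.1, their 25th percentile, before log2 was taken. Those kept had a mean signal of at least 26.9, the median of the means. Differences were called at 2-fold, with 1.5-fold as a looser limit. With 1 array per group there are no p-values, and precision is limited by the number of arrays. Gene names came from the platform annotation, and 51 of 51 members matched RefSeq GRCm38.p6 by gene ID. The steps were tested on simulated data.

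Members and lists were chosen with earlier results of these data known. Genes are named where 2-fold different, where brightest in a role group, where among the 3 with the largest ratios of that group, or where 1.5-fold different in opposite directions between diets. Members named beside these, and genes of the lists, were chosen after their values were seen. Alternatives covered normalization (limma 3.58.1 for quantile and cyclic loess), floor, a pseudocount of 16, filter and probe set choice. Python 3.11.15 was used.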

Additional observations from a re-analysis of the deposited data

Results flagged for a closer look

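Fga had genotype log2 ratios of opposite sign on the 2 diets, -0.46 on ND and 0.49 on FD, a difference of 0.95. Each ratio was larger than the probe-set SD of 0.298, as was the case for 1 of 42 members (2.38%) and for 7.58% of all kept genes. The difference was not tested, as each pool had 1 array.

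F7 had diet log2 ratios of opposite sign, -0.34 in wild type and 0.38 in HSL-null liver, a difference of 0.72. With Fga, 2 of 42 members (4.76%) had this pattern, against 6.77% of all kept genes. The difference was not tested, and the other probe set of F7 gave -0.14 and -0.33.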

How the results depend on the processing

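No paired analysis was possible because each group has 1 array. Of 108 values for counts and medians under the alternatives, 90 kept to the reported value within 1.5 times for counts or 0.046 for medians, and no 1.5-fold ratio changed sign among the 27 members for which single ratios were recomputed. The alternatives for the 1.5-fold counts and for single genes were chosen after seeing the data.

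Scaling arrays to a common median moved the median over all kept genes by 0.13 and -0.17 for genotype on ND and FD, and by 0.14 and -0.16 for diet in wild type and HSL-null liver. Under this median scaling the member medians became 0.12, -0.13, -0.092 and -0.29. Median scaling multiplies each array by a constant and so moves the ratios of a comparison nearly alike. The gap of the members to all genes therefore stayed at -0.19 for diet in wild type and -0.17 in HSL-null liver. Quantile normalization gave medians of 0.047 for genotype on ND, -0.047 for diet in wild type and -0.032 for diet in HSL-null liver. Cyclic loess gave 0.12 for genotype on FD and -0.037 for diet in HSL-null liver. Without a filter the diet median in wild type was -0.15, and without suffix probe sets the genotype median on FD was 0.11. The cause of the shifts other than those of median scaling was not tested.

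The count of members 2-fold different became 1 with no filter, for genotype on ND and for diet in wild type, and the gene was Cfb at a low signal. The 1.5-fold count for genotype on FD became 2 with quantile normalization (Fga and Hc), 2 with median scaling (C8g and Masp2) and 2 with no filter (Hc and Serpinb9e). For diet in HSL-null liver it became 1 with median scaling (Serpina12) and 1 with no filter (Serpinb9e). Signals under the floor carry no order, which limits the 9 members that were not kept.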
